A study of Mus musculus with 4 samples.

Results

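The 9 nonclassical MHC class Ib genes *H2-Q1*, *H2-Q2*, *H2-Q4*, *H2-Q6*, *H2-Q7*, *H2-Q10*, *H2-T22*, *H2-T24* and *H2-M3* were examined among the 25239 gene symbols counted in lung tumor-infiltrating CD4+ T cells. The set was chosen by the log2 fold change of *H2-Q1*, among the lowest in the libraries labelled CD4/ALK4-KO against those labelled WT, so this difference is described for the 9 genes without a test. RNA-Seq libraries were compared from mice of the C57BL/6 background, 2 from WT mice and 2 from CD4CreERT2+/-/Acvr1bfl/fl mice, called CD4/ALK4-KO. Per the methods, tamoxifen induced Cre under the *Cd4* promoter in the latter, which deletes *Acvr1b*, the gene of the activin receptor ALK4, in *Cd4*-expressing cells. Both groups carried lung tumors of LLC-OVA, a Lewis lung carcinoma line expressing ovalbumin that had been injected intravenously and was left to grow for 18 to 22 days per the labels, where the methods give a range that starts and ends earlier. Leukocytes of the tumors were enriched on a Percoll gradient before the CD4+ T cells were isolated. Per the methods, the mice were young adult males. The number of mice behind a library and whether the WT mice received tamoxifen are not given in the labels, and p-values measure only the spread between the libraries.

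Classical class Ia molecules, encoded in this strain by *H2-K1* and *H2-D1*, are highly polymorphic, are made by nearly all nucleated cells and present peptides to CD8+ T cells. Class Ib molecules are close relatives with little polymorphism and usually a narrower pattern of expression, and most also pair with the light chain β2-microglobulin. Some present peptides of a restricted kind to T cells, some are ligands of natural killer (NK) cell receptors, and some bind no peptide. Transcription of class I genes is increased by interferons through factors such as IRF1 and the transactivator NLRC5.

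All 9 genes lie in the MHC on chromosome 17 and are annotated as protein coding in GENCODE M21 (GRCm38). *H2-Q1* (chr17:35320405-35325099, plus strand) is the first gene of the Q region and starts 52.9 kb past the end of *H2-D1*. It is followed on the same strand by *H2-Q2* (chr17:35342242-35346762), *H2-Q4* (chr17:35379617-35385290), *H2-Q6* (chr17:35424850-35430055), *H2-Q7* (chr17:35439155-35443773) and *H2-Q10* (chr17:35470089-35474563). *H2-T24* (chr17:36005695-36020560) and *H2-T22* (chr17:36037128-36042747) lie on the minus strand in the T region, and *H2-M3* (chr17:37270220-37274484, plus strand) lies 1227 kb beyond *H2-T22*.

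The Q genes are similar enough for short reads to fit several of them. The following lines give the 75-base stretch of *H2-Q6* coding sequence that was most alike in the other 5 Q genes, which is as long as a read of this study, in exon 4 (*H2-Q6* chr17:35427965-35428039, GRCm38, plus strand, from the GENCODE M21 transcripts). Capitals mark bases that differ from *H2-Q6*.
H2-Q6: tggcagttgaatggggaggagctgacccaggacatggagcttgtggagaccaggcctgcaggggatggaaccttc
H2-Q7: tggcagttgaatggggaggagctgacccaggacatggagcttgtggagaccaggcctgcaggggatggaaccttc
H2-Q1: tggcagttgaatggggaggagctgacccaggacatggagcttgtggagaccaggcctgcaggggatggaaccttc
H2-Q4: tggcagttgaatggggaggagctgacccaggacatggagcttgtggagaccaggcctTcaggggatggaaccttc
H2-Q10: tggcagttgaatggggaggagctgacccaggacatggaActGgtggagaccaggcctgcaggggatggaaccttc
H2-Q2: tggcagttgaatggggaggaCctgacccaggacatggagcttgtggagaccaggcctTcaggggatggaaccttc

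In this stretch *H2-Q7* and *H2-Q1* had 0 differences from *H2-Q6*, *H2-Q4* had 1, and *H2-Q10* and *H2-Q2* had 2 each, so that a read lying there cannot be assigned to *H2-Q1*, *H2-Q6* or *H2-Q7* by its sequence. The stretch that was least alike lies in exon 3, which encodes part of the peptide-binding groove (*H2-Q6* chr17:35425695-35425769). There *H2-Q7* differed from *H2-Q6* at 7 bases, *H2-Q4* at 12, *H2-Q10* and *H2-Q2* at 17 and *H2-Q1* at 18, and reads of these genes can be told apart.
H2-Q6: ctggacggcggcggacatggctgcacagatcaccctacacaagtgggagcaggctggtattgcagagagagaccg
H2-Q7: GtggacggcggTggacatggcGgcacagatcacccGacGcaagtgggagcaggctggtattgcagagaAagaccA
H2-Q4: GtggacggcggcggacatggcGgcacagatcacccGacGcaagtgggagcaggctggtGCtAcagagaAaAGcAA
H2-Q10: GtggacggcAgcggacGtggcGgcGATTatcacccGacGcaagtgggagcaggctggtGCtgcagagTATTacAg
H2-Q2: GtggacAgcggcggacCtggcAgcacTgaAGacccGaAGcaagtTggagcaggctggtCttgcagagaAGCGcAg
H2-Q1: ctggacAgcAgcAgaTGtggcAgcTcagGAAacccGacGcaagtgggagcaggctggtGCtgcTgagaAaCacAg

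Over the whole coding sequence, identity was highest for *H2-Q6* with *H2-Q7*, at 95.4%. *H2-Q1* was 88.2% identical to the class Ia gene *H2-D1*, 87.8% to *H2-Q7* and 86.2% to its neighbour *H2-Q2*. *H2-T24* stood furthest from the other 8 genes, with 66.1% to 69.4% identity, and *H2-M3* shared 68.4% to 74.6% with them. Each annotated transcript was then cut into all windows of 75 bases, and a window was counted as shared where another annotated gene held it on either strand. Identical windows made up 40.0% of *H2-T22*, 21.1% of *H2-Q6*, 20.7% of *H2-Q4*, 16.95% of *H2-Q7*, 12.5% of *H2-Q10*, 10.9% of *H2-Q1*, 8.07% of *H2-Q2*, 0.459% of *H2-T24* and 0% of *H2-M3*. When up to 2 mismatches were allowed, the share was 76.6% for *H2-T22*, 60.5% for *H2-Q6*, 55.1% for *H2-Q4* and 22.2% for *H2-Q1*. The counts of *H2-T22*, *H2-Q6* and *H2-Q4* are therefore the least certain and those of *H2-M3* and *H2-T24* the most distinct.

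**Figure D1:**
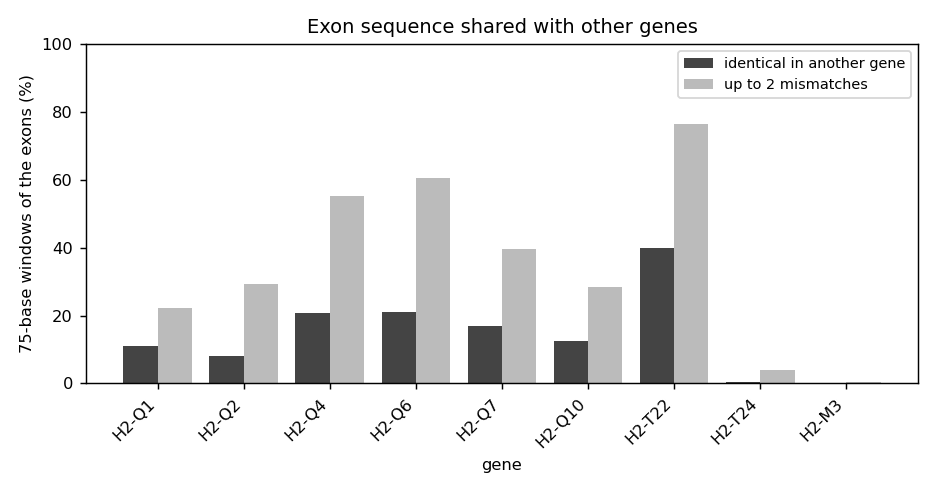
Bars give, for each gene, the percent of the 75-base windows of its annotated transcripts that also occur in another annotated gene, either identical (dark) or with up to 2 mismatches (light). *H2-T22* has the highest bars, at 40.0% and 76.6%, and *H2-M3* the lowest, at 0% and 0.513%. Matches on either strand count, so the *H2-T22* bars include windows of *A930015D03Rik*, an antisense gene overlapping 1003 of its exon bases at the same place.

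For *H2-T22*, the partner sharing most identical windows (25.2%) was *A930015D03Rik*, an antisense gene overlapping 1003 of its exon bases, and *H2-T10* shared 59.6% with up to 2 mismatches. *H2-Q4* likewise overlaps the antisense gene *Gm11131* over 496 exon bases, and 26.5% of its windows matched *H2-Q6* with up to 2 mismatches. The library kit does not mark strand, so reads from overlapping antisense genes cannot be separated. For *H2-Q1* the main partners were *H2-Q2*, with 5.52% of its windows identical, and *H2-D1*, with 3.57%, and for *H2-Q7* it was *H2-Q10*, with 8.88%. *H2-Q8* and *H2-Q9*, which with *H2-Q6* and *H2-Q7* encode the Qa-2 antigen, are not in the annotation used for these windows. Reads of near-identical copies can be dropped or placed on the wrong copy, and levels of the Q genes and *H2-T22* are uncertain to that extent.

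Promoter sequences were matched for 7 of the 9 genes in RefSeq (GRCm38.p6), and *H2-Q1* and *H2-T24* had no entry. The 200 bases upstream of the start are given for 4 Q genes, because *H2-Q4* and *H2-Q6* were well counted, *H2-Q10* was low and *H2-Q7* was near 0. Capitals mark matches, on either strand, to the NF-kappaB motif, the letters TTTCACTT (the core of the interferon-responsive element, chosen after these promoters had been read), the IRF motif, TGACG (CRE half-site), CCAAT and TATAAA, and neighbouring matches run together.
H2-Q4, chr17:35379417-35379616, plus strand: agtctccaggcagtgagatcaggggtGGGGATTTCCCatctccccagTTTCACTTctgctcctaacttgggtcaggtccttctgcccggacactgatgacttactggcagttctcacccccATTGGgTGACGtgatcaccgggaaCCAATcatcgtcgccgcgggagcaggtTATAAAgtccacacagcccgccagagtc
H2-Q6, chr17:35424650-35424849, plus strand: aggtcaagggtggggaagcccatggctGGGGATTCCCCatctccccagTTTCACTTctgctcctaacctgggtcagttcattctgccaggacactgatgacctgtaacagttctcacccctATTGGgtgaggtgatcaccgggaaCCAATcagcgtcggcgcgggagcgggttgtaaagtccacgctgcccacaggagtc
H2-Q7, chr17:35438955-35439154, plus strand: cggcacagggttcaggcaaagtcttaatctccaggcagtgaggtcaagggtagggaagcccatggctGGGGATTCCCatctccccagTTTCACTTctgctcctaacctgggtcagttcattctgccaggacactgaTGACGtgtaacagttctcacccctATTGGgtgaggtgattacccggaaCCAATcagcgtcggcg
H2-Q10, chr17:35469889-35470088, plus strand: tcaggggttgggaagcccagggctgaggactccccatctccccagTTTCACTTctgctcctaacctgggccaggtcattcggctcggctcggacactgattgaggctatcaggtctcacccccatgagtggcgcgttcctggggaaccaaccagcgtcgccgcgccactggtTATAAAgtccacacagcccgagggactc

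TTTCACTT was present upstream of 6 of the 7 genes, *H2-Q2* being the exception, and in 1.03% of the 32851 promoters searched. As it was chosen after these related promoters had been read, the difference between these shares is not a test. The NF-kappaB motif stood upstream of *H2-Q4*, *H2-Q6*, *H2-Q7* and *H2-M3* and in 3.18% of all promoters. It was not found in these windows for *H2-Q2*, *H2-Q10* and *H2-T22*. Both TTTCACTT and the NF-kappaB motif also stood upstream of the class Ia genes *H2-K1* and *H2-D1*, so neither is particular to class Ib genes. The IRF motif was matched only in *H2-T22* among the 7 and in 2.27% of all promoters. TGACG (15.7% of all) was found in *H2-Q4*, *H2-Q7*, *H2-T22* and *H2-M3*, CCAAT (29.3%) in all 7 but *H2-Q10*, and TATAAA (9.96%) in *H2-Q2*, *H2-Q4* and *H2-Q10*. The *H2-Q6* and *H2-Q7* windows were 97.5% identical over the 160 bases that aligned. These matches describe the letters and do not show that a factor is bound.

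The libraries held 11823908 to 13943237 counted reads. *Acvr1b* was counted at 426 and 342 reads under the WT label and at 322 and 445 reads under the CD4/ALK4-KO label, and so did not separate the genotypes. On the TMM scale all 15 T cell markers were higher in CD4/ALK4-KO (edgeR's quasi-likelihood test, adjusted p below 0.05), against 17.4% of all genes tested. The summed level of these markers was 475 to 515 CPM (counts scaled to library size) in WT and 2602 to 2711 CPM in CD4/ALK4-KO. Markers of other cells were present in every library: the 11 macrophage and monocyte markers summed to 6599 to 7594 CPM in WT and 6293 to 6783 CPM in CD4/ALK4-KO, the 6 fibroblast markers to 6173 to 6857 and 3823 to 4592 CPM, the 7 epithelial markers to 865 to 869 and 420 to 565 CPM, the 6 B cell markers to 52.6 to 62.0 and 174 to 338 CPM, and the 6 NK cell markers to 67.5 to 115 and 263 to 299 CPM. Their part in the class Ib values was not tested, and in such bulk libraries fewer cells of a type and less RNA per cell cannot be told apart. CPM here are scaled with the TMM method over all genes, and on this scale the median log2 fold change of the 13919 genes tested was -0.01. When the libraries were instead scaled to *Cd3d*, *Cd3e*, *Cd3g* and *Cd247*, genes of the T cell receptor complex, that median was -2.36.

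*H2-Q1* was well counted in WT and nearly absent in CD4/ALK4-KO. It had 360 and 263 reads in the WT libraries and 13 and 15 in the CD4/ALK4-KO libraries. The groups did not overlap, and replicates lay far closer to each other than to the other group. Its level was 22.9 ± 4.83 CPM in WT and 1.15 ± 0.087 CPM in CD4/ALK4-KO (SD, n = 2), which is 19.6-fold lower on the fitted scale (log2 fold change -4.30, SE 0.36). This value, which chose the set, put it at place 9 from the lowest of the 13919 genes tested. Among the 10460 genes that averaged at least 100 counts it was at place 3, where *Clca1* lay just below it at -4.72 and *Rhox2g* just above it at -3.08. *Clca1* had 14 and 1292 reads in WT and 33 and 11 in CD4/ALK4-KO, so a single WT library made its value and its groups overlapped. Of the 75-base windows of *H2-Q1*, 89.1% had no identical copy in another annotated gene.

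*H2-Q2*, the next gene, 17.1 kb downstream, showed the opposite order. It had 16 and 9 reads in WT and 119 and 45 in CD4/ALK4-KO. Both CD4/ALK4-KO libraries were above both WT libraries, but they lay further apart from each other than the WT libraries did. The log2 fold change was 2.88 (SE 0.54), and it was 2.01 without CD4/ALK4-KO replicate 1. Its windows without an identical copy made up 91.9%.

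*H2-Q4* and *H2-Q6* carried the most reads of the 9 genes over the 4 libraries. *H2-Q4*, which encodes the Qb-1 antigen, had 1704 and 1206 reads in WT and 2200 and 3222 in CD4/ALK4-KO. The groups did not overlap, and the log2 fold change was 1.06 (SE 0.24). *H2-Q6* had 770 and 650 reads in WT and 1590 and 2182 in CD4/ALK4-KO, which is a log2 fold change of 1.57 (SE 0.22), with both CD4/ALK4-KO libraries above both WT libraries. Qa-2, the product of *H2-Q6* and its copies, is held in the membrane by a lipid anchor or is secreted, and it presents peptides.

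*H2-Q7*, the copy of *H2-Q6* lying 9.10 kb downstream, had 2 reads in WT replicate 1 and 0 in the remaining 3 libraries. A count of 0 allows up to 3 reads, which is 0.219 to 0.252 CPM in these libraries, so no fold change is given. It was the only gene of the 9 that did not pass the filter on low counts. Of its windows, 83.0% had no identical copy in the annotation used, which lacks *H2-Q8* and *H2-Q9*, so likeness to these 2 copies was not measured. *H2-Q8* had 0 and 2 reads in WT and 0 and 4 in CD4/ALK4-KO, and *H2-Q9* had 0 in all 4 libraries, so that nearly all reads counted for the Qa-2 genes stood on *H2-Q6*. How the authors' counting treated reads that fit several copies was not tested.

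*H2-Q10*, which encodes a soluble class I molecule made mainly by the liver, was low in every library. It had 59 and 56 reads in WT and 93 and 84 in CD4/ALK4-KO, with no overlap and a log2 fold change of 0.79 (SE 0.36). The 4 hepatocyte markers summed to at most 0.292 CPM in any library, and *Ttr* and *Serpina1a* were at 0 in all 4.

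In the T region, *H2-T22* encodes a molecule that binds no peptide and is recognised by a subset of γδ T cells. It had 117 and 90 reads in WT and 108 and 104 in CD4/ALK4-KO, and the groups overlapped (log2 fold change 0.20, SE 0.32). *H2-T24* had 113 and 170 reads in WT and 347 and 328 in CD4/ALK4-KO. Here both CD4/ALK4-KO libraries were above both WT libraries, and the log2 fold change was 1.42 (SE 0.28). *H2-M3*, whose product presents N-formylated peptides of bacteria and mitochondria, had 621 and 585 reads in WT and 738 and 817 in CD4/ALK4-KO. Its groups did not overlap, but the difference was small, with a log2 fold change of 0.53 (SE 0.21).

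Across the set, 6 genes had both CD4/ALK4-KO libraries above both WT libraries (*H2-Q2*, *H2-Q4*, *H2-Q6*, *H2-Q10*, *H2-T24* and *H2-M3*), 1 had the reverse (*H2-Q1*), and the groups overlapped for *H2-T22* and *H2-Q7*. Of all genes tested, 32.7% had CD4/ALK4-KO above WT without overlap and 34% had the reverse, and as the same comparison chose the set, nothing is read from its counts. On the scale of the T cell receptor complex genes, *H2-Q2* alone kept a positive log2 fold change, at 0.54, *H2-Q1* was at -6.63, and the signs of the other 6 reversed, from -0.77 for *H2-Q6* to -2.14 for *H2-T22*, against the median of -2.36 over all genes.

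**Figure D2:**
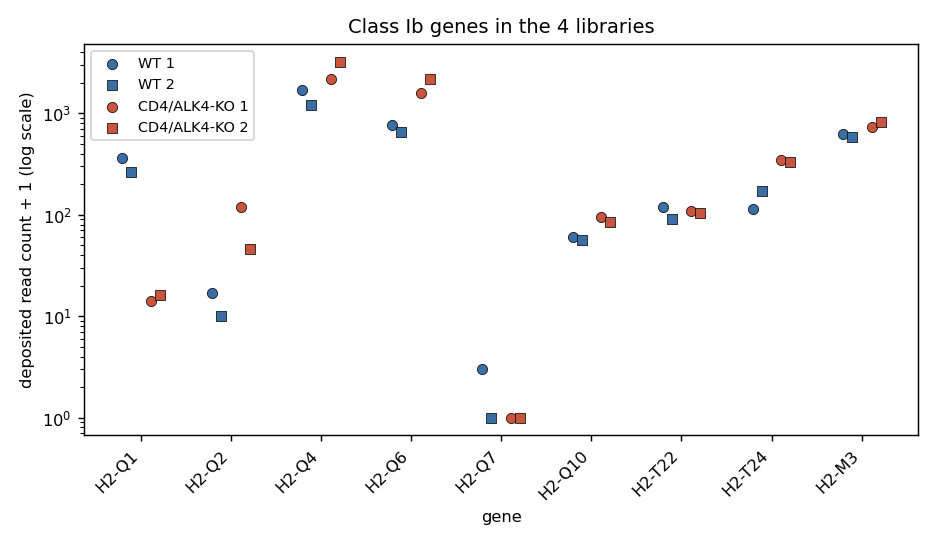
Each point is the deposited read count plus 1 (log axis) of a gene in a library, with WT in blue, CD4/ALK4-KO in red, replicate 1 as circles and replicate 2 as squares. *H2-Q1* has its WT points at 360 and 263 reads far above its CD4/ALK4-KO points at 13 and 15, while *H2-Q2*, *H2-Q4*, *H2-Q6*, *H2-Q10*, *H2-T24* and *H2-M3* have the red points on top. The counts are not scaled for library size.

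To compare levels between genes, CPM were divided by the length of each gene's annotated exons in kb. In WT the order of these levels was *H2-Q4* at 41.1 CPM per kb, *H2-M3* at 30.8, *H2-Q6* at 25.0, *H2-Q1* at 7.99, *H2-T24* at 4.77, *H2-T22* at 2.22, *H2-Q10* at 0.971, *H2-Q2* at 0.420 and *H2-Q7* at 0.017 (means, n = 2). No neighbours in this order had overlapping libraries. In CD4/ALK4-KO the order was *H2-Q4* at 85.9 CPM per kb, *H2-Q6* at 74.4, *H2-M3* at 44.6, *H2-T24* at 12.8, *H2-Q2* at 3.13, *H2-T22* at 2.56, *H2-Q10* at 1.68, *H2-Q1* at 0.403 and *H2-Q7* at 0. The libraries of *H2-Q4* and *H2-Q6* overlapped there, as did those of *H2-Q2* and *H2-T22*. *H2-Q1* thus moved from the fourth place to the eighth.

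The ratio of class Ib to class Ia reads within a library does not depend on how libraries are scaled to each other. For 100 reads on *H2-K1* and *H2-D1* together, the 9 genes had 11.1 (95% Wilson interval 10.7 to 11.5) and 12.4 (11.9 to 12.8) reads in WT and 15.7 (15.3 to 16.2) and 16.5 (16.1 to 16.9) in CD4/ALK4-KO. The intervals cover counting error only. The CD4/ALK4-KO libraries were both higher, and without *H2-Q1* the values were 10.02 and 11.3 in WT and 15.7 and 16.4 in CD4/ALK4-KO.

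For *H2-Q1* alone this ratio was 1.06 and 1.07 reads in WT and 0.039 and 0.036 in CD4/ALK4-KO, with intervals of 0.950 to 1.21 at the widest in WT and 0.022 to 0.067 in CD4/ALK4-KO. Within a group the replicates were nearly equal. *H2-Q6* gave 2.27 and 2.65 reads in WT and 4.80 and 5.29 in CD4/ALK4-KO, and *H2-Q4* gave 5.02 and 4.92 against 6.65 and 7.81. Against class Ia reads the groups also stayed apart for *H2-Q2*, with 0.047 and 0.037 against 0.360 and 0.109, and for *H2-T24*, with 0.333 and 0.693 against 1.05 and 0.795. They overlapped for *H2-M3*, with 1.83 and 2.39 reads in WT and 2.23 and 1.98 in CD4/ALK4-KO, and for *H2-Q10*, with 0.174 and 0.228 against 0.281 and 0.204. *H2-T22* had 0.345 and 0.367 reads in WT and 0.326 and 0.252 in CD4/ALK4-KO, so its WT libraries were the higher ones by this measure. The sum of the 9 genes was made up of *H2-Q1* by 9.57% and 8.68% in WT and by 0.250% and 0.221% in CD4/ALK4-KO.

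**Figure D3:**
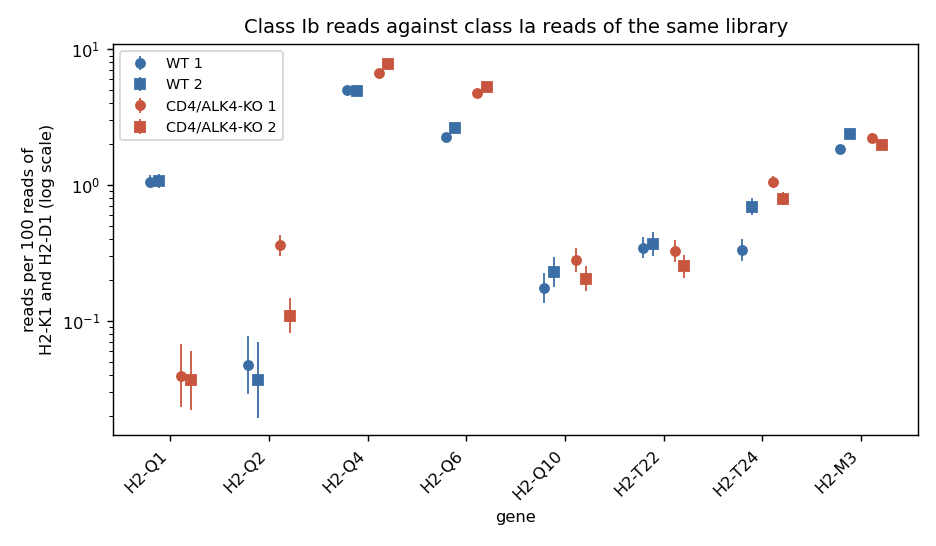
Points give the reads of each gene per 100 reads of *H2-K1* and *H2-D1* in the same library (log axis), with 95% Wilson intervals as bars, WT in blue and CD4/ALK4-KO in red, replicate 1 as circles and replicate 2 as squares. *H2-Q1* lies at 1.06 and 1.07 in WT and at 0.039 and 0.036 in CD4/ALK4-KO, and *H2-M3* and *H2-Q10* overlap. *H2-Q7* is left out because 3 of its 4 counts were 0.

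Next, the other class Ib genes of the MHC were examined. As background, 17.4% of all genes tested were higher in CD4/ALK4-KO and 15.4% were lower (edgeR's quasi-likelihood test, adjusted p below 0.05). On the T cell receptor scale 13013 of the 13919 genes tested were lower and 34 were higher. The counts given on that scale for each list have this background. Of 24 such genes in the files, 10 had 0 reads in every library and 7 passed the filter, and of these 4 were higher in CD4/ALK4-KO and 0 were lower, with a median log2 fold change of 1.45, whereas the median was -0.90 on the T cell receptor scale, with 5 lower and 0 higher. The 4 were *H2-Q5*, *H2-T10*, *H2-T23* and *H2-T-ps*, the last named after its value was seen. Of these only *H2-T23* is annotated as protein coding in GENCODE M21. *H2-Q5* and *H2-T10* are annotated as polymorphic pseudogenes and *H2-T-ps* as an unprocessed pseudogene. *H2-T23* encodes Qa-1, the ligand of the CD94/NKG2A receptor, and had 2450 and 1953 reads in WT and 3263 and 3887 in CD4/ALK4-KO (log2 fold change 0.87, SE 0.22, edgeR adjusted p = 0.0046). Its call was lost without WT replicate 2 (adjusted p = 0.18). *H2-T10*, the gene most like *H2-T22*, had 142 and 150 reads against 379 and 393 (log2 fold change 1.57, SE 0.26, edgeR adjusted p = 8.4e-05), while *H2-T22* overlapped between the groups. *H2-Q5* had 118 and 85 reads against 159 and 262 (log2 fold change 1.21, SE 0.31), and its call was lost without WT replicate 2 (adjusted p = 0.10), as was that of *H2-T-ps* without WT replicate 1 (adjusted p = 0.074). *Gm10499*, a pseudogene, had 4 and 9 reads in WT but 24 and 425 in CD4/ALK4-KO, so that a single library made its log2 fold change of 5.23 (SE 2.31, edgeR adjusted p = 0.25), which was 2.05 (adjusted p = 0.022) without CD4/ALK4-KO replicate 2 and passed DESeq2's Wald test (adjusted p = 0.0091). With the replicate block it was 4.84 (adjusted p = 7.4e-14), and with the crossed block it did not pass (adjusted p = 0.31).

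**Figure D4:**
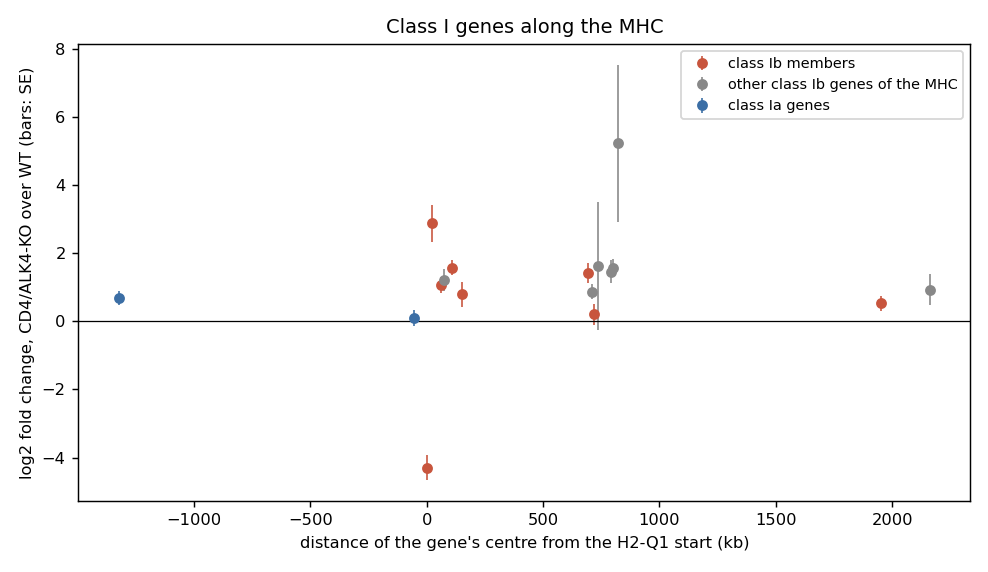
Log2 fold changes (points, with SE as bars) of the class I genes that passed the filter on low counts are drawn against the distance in kb of each gene's centre from the start of *H2-Q1*. *H2-Q1* at -4.30 is the only point below 0, between *H2-D1* at 0.10 and *H2-Q2* at 2.88. On the T cell receptor scale all but *H2-Q2* and *Gm10499* among the class Ib genes are below 0.

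Of the 3 genes listed as class Ia, 1 was higher in CD4/ALK4-KO and 0 were lower, while all 3 were lower on the T cell receptor scale. Besides *H2-K1* and *H2-D1*, the list holds *H2-L*, named after its values were seen. It is not among the class Ia genes given above for this strain. *H2-L* had 79 and 60 reads in WT and 65 and 111 in CD4/ALK4-KO, and its groups overlapped. *H2-K1* had 22551 and 16512 reads in WT and 25441 and 30337 in CD4/ALK4-KO (log2 fold change 0.68, SE 0.21, edgeR adjusted p = 0.014), a call lost without WT replicate 1 (adjusted p = 0.074), without WT replicate 2 (adjusted p = 0.37) and with the replicate block (adjusted p = 0.068). *H2-D1* had 11396 and 8009 reads in WT and 7660 and 10900 in CD4/ALK4-KO, and its groups overlapped (log2 fold change 0.10, SE 0.23, edgeR adjusted p = 0.77). For *B2m*, the light chain, the log2 fold change was 0.04 (SE 0.18, edgeR adjusted p = 0.89).

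Among the 9 genes for peptide loading and the light chain, 3 were higher in CD4/ALK4-KO and 1 was lower, with a median log2 fold change of 0.14. On the T cell receptor scale all 9 were lower, as were most of all genes tested. *Tap1* and *Tap2*, which form the peptide transporter, had log2 fold changes of 1.16 (SE 0.22, edgeR adjusted p = 0.00037) and 0.87 (SE 0.24, adjusted p = 0.0068), and *Tapbpl*, a peptide editor, had 1.00 (SE 0.24, adjusted p = 0.0028). All of these calls were lost without WT replicate 2, with adjusted p of 0.058, 0.23 and 0.11. *Canx*, the chaperone calnexin, was lower, at -0.79 (SE 0.21, adjusted p = 0.0060), and its call was lost without WT replicate 1 (0.053) or WT replicate 2 (0.18). *Tapbp*, *Calr*, *Pdia3* and *Erap1* had log2 fold changes of 0.14, -0.02, -0.36 and 0.29 and did not pass. Of the 5 immunoproteasome genes, 2 passed, *Psmb8* at 1.06 and *Psmb9*, named after its value was seen, at 0.99 (edgeR adjusted p = 0.00070 and 0.0012, the latter lost without WT replicate 2 at 0.073), both below 0 on the T cell receptor scale. *Psme1* and *Psme2*, of the proteasome activator, had 0.56 and 0.23 and did not pass. For *Psme1* edgeR's adjusted p was 0.055 and that of DESeq2's Wald test, which it passed, was 0.028. With the replicate block in edgeR it was 0.21. In the lists of other class Ib, class Ia, immunoproteasome, regulator and receptor genes, 0 genes were lower also by DESeq2's Wald test and at an unadjusted edgeR p below 0.05.

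Regulators of class I transcription were higher in 13 of 17 cases and lower in 0, with a median log2 fold change of 0.90, whereas 16 were lower on the T cell receptor scale. *Nlrc5* had 749 and 574 reads in WT and 2327 and 3303 in CD4/ALK4-KO, or 2.25 as log2 fold change (SE 0.23, edgeR adjusted p = 2.5e-07). *Irf1* had 1.31 (SE 0.22, adjusted p = 0.00011), and *Ifngr1*, a chain of the interferon-γ receptor, had 1.29 (SE 0.22, adjusted p = 8.9e-05). Each of these 3 calls held when any 1 library was left out. By TMM scaling, *H2-Q1* was lower in the libraries in which these 3 regulators of class I genes were higher. With scaling to the T cell receptor complex genes instead, the median log2 fold change of all genes tested was -2.36. *Irf1* (-1.04) and *Ifngr1* (-1.06) were below 0 but above that median, and *H2-Q1* (-6.63) was below it. *Nlrc5* stood at -0.08 there and did not pass. Whether these regulators have a part in the *H2-Q1* difference was not tested.

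Of the 12 genes listed as receptors for class I and class Ib molecules, 11 were higher and 0 lower, with a median log2 fold change of 1.76. On the T cell receptor scale the median was -0.60, with 6 lower and 0 higher. *Cd8a*, whose product binds class I molecules on T cells, was at 2.43 (SE 0.25, edgeR adjusted p = 1.8e-07), and *Pirb*, an inhibitory receptor of myeloid and B cells, at 0.99 (SE 0.21, adjusted p = 0.0012, lost without WT replicate 1 at 0.064). *Lilrb4a* did not pass, at 0.37. Although the isolation was for CD4+ cells, *Cd8a* had 365 and 321 reads in WT and 1996 and 1285 in CD4/ALK4-KO.

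Of 10 class I-like genes outside the MHC that passed the filter, 2 were higher and 3 were lower in CD4/ALK4-KO (1 and 2 by DESeq2's Wald test), with a median of -0.48, and 9 were lower on the T cell receptor scale. The higher ones were *Cd1d1*, which presents lipids to natural killer T cells (log2 fold change 1.15, SE 0.27, edgeR adjusted p = 0.0026, lost without WT replicate 1 at 0.15), and *H60b* (2.67, SE 0.98, adjusted p = 0.040, on 0 to 13 reads a library). The lower ones were *Raet1d* (-1.52, SE 0.47, adjusted p = 0.016) and *Raet1e* (-1.56, SE 0.43, adjusted p = 0.0077), ligands of the activating receptor NKG2D, and *Procr*, the endothelial protein C receptor (-0.71, SE 0.27, adjusted p = 0.048). These 5 were named after their values were seen, and the calls of *H60b*, *Raet1d*, *Raet1e* and *Procr* were each lost without either WT replicate, *H60b* with adjusted p of 0.54 and 0.082, *Raet1d* 0.15 and 0.13, *Raet1e* 0.14 and 0.053, and *Procr* 0.31 and 0.16. The calls of *H60b* and *Procr* were also lost with the replicate block (adjusted p = 0.0501 and 0.12) and by DESeq2's Wald test (0.14 and 0.067). In GENCODE M21 *Raet1d* and *H60b* lie within the span of *Raet1e* on the same strand. Whether reads were shared among *Raet1d*, *Raet1e* and *H60b* was not tested, so their counts may not be independent. *Fcgrt*, *Hfe* and *Mr1*, the best counted of the list, had -0.47, -0.20 and 0.10 and did not pass. Over all these lists 36 genes were higher and 4 lower, against 21 and 0 without WT replicate 1 and 22 and 0 without WT replicate 2.

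**Figure D5:**
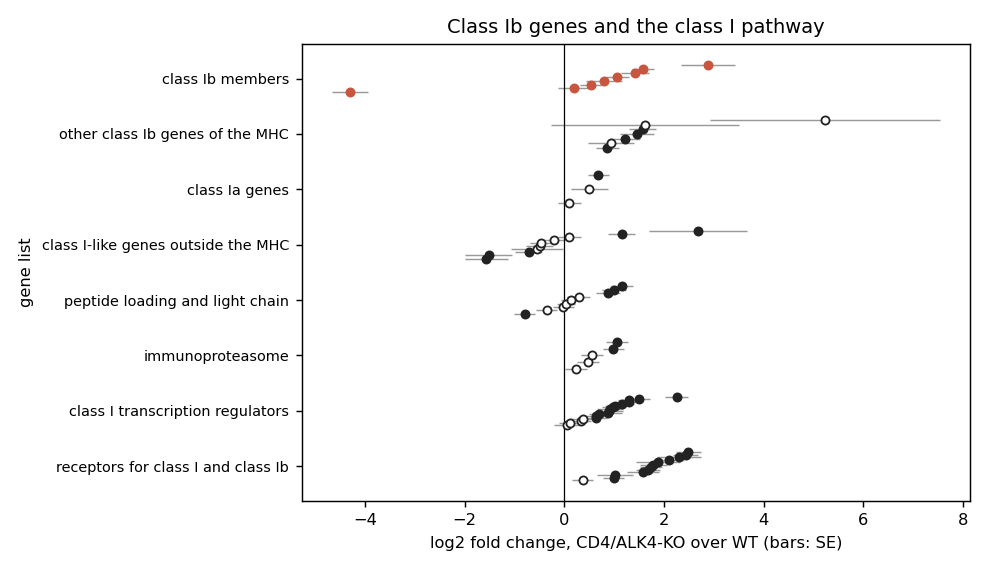
Log2 fold changes (CD4/ALK4-KO over WT, TMM scale, SE as bars) are drawn by list. Red points are the class Ib genes described here, without a test, black points passed edgeR's test and open points did not. *H2-Q1* stands at -4.30, and the other red points run from 0.20 to 2.88. The median of each list drawn is below 0 on the T cell receptor scale.

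The genes with a profile most like that of *H2-Q1* were sought among the same 10460 better counted genes, by the Euclidean distance over the 4 libraries of log2(CPM + 0.5) after each gene was centred on its mean. The nearest was *Gm773* (distance 0.755), with 188 and 261 reads in WT and 8 and 5 in CD4/ALK4-KO. The next were *Rhox5* (0.979), *Rhox2h* (1.03) and *Rhox2d* (1.04), homeobox genes of the X-linked reproductive cluster, which are normally expressed mainly in germline and placental tissues. *Rhox5* had 3907 and 4114 reads in WT and 425 and 524 in CD4/ALK4-KO. *Rhox2h* had 458 and 528 against 43 and 64, and *Rhox2d* had 515 and 444 against 43 and 69. The fifth was *Col8a1* (1.29), a collagen gene, with 1259 and 1226 reads against 133 and 228. In all 5 both WT libraries were far above both CD4/ALK4-KO libraries, with log2 fold changes of -4.92, -2.91, -3.04, -2.93 and -2.62 in the order given, and as *H2-Q1* was chosen for this pattern no test is given for them. The *Rhox2* genes are near-identical copies themselves, so their counts may be split among them. Among markers, the summed levels of the fibroblast and epithelial lists were also higher in WT, as given above. In the epithelial list 4 of 7 genes were lower in CD4/ALK4-KO and 2, *Epcam* and *Cdh1*, were higher (log2 fold changes 2.31 and 1.77). In the fibroblast list 3 of 6 were lower (2 by DESeq2's Wald test) and 0 higher. Of all genes tested, 15.4% were lower and 17.4% higher. On the T cell receptor scale 5 epithelial and 6 fibroblast genes were lower, as were most of all genes tested. The part of fibroblasts and epithelial cells in the *H2-Q1* difference was not tested, nor was that of the LLC-OVA tumor cells, for which no markers were listed.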

How the data were processed

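RNA-Seq was performed on 4 libraries, 2 per genotype label, as 75-base single-end reads of a kit that does not mark strand. Per the labels and the methods, the authors used HISAT2 to map the reads to mm10 and counted them per gene symbol with htseq-count (HTSeq) in its intersection-nonempty mode. They deposited raw counts without normalization. Versions, annotation and the treatment of reads fitting several places are not given in the sources used here. Library totals were 11823908 to 13943237 counts.

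From these counts, edgeR 4.0.16 (R 4.3.3) kept 13919 of 25239 genes with filterByExpr, scaled them by TMM and fitted a robust quasi-likelihood model with genotype as the only term, with Benjamini-Hochberg adjustment and a threshold of 0.05. SE was obtained from the log2 fold change and the F statistic, as the size of the former over the root of the latter. The fit was tested on simulated data. Replicates differed by more than sampling noise (chi-square per degree of freedom 16.8 in WT and 30 in CD4/ALK4-KO). Gene positions, exon lengths and windows came from GENCODE M21 (GRCm38) and promoters from RefSeq (GRCm38.p6); coding sequences were aligned with Biopython 1.88. The 9 genes and the lists were chosen with earlier results of these data known. Genes were named by rule: the 9, other class Ib, class Ia and peptide loading genes averaging at least 100 counts, *Nlrc5* and *Irf1*, up to 3 of the best counted of other lists and the 5 profiles nearest to *H2-Q1*. The values of 1 gene that the rule names are not reported here. The alternatives were DESeq2 1.42.0 (size factors and Wald test), scaling to 4 T cell receptor complex genes, no filter, a minimum of 10 counts in every library, the replicate block, each library left out, *H2-Q6* and *H2-Q7* summed, *B2m* as denominator, and other window settings.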

Additional observations from a re-analysis of the deposited data

How the results depend on the processing

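The 8 fitted class Ib genes kept their sign under every alternative run that could fit them (*H2-Q2* dropped out with at least 10 counts in every library) except the scaling to 4 T cell receptor complex genes. On that scale *H2-Q4* (-1.27), *H2-Q6* (-0.77), *H2-Q10* (-1.56), *H2-T22* (-2.14), *H2-T24* (-0.94) and *H2-M3* (-1.82) had negative log2 fold changes, and 1 gene in place of 7 was positive. There 34 genes were called higher and 13013 lower, against 2422 and 2140, and 0 and 53 in the class I lists, against 36 and 4. With 1 library left out at a time, calls over all genes ran from 1103 to 2923 higher and from 754 to 2618 lower, and those in the lists from 21 to 38 and from 0 to 5. The lone library of a group was then assumed to vary like the others.

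The log2 ratio of the 9 genes to class Ia reads, CD4/ALK4-KO over WT, was 0.46 and ran from 0.38 to 0.54 without a library, but was 0.95 against *B2m*. Windows shared by the 9 genes rose from 16.4% to 38.2% with up to 2 mismatches and to 25.0% at 50 bases. The libraries share only replicate numbers. With the replicate number as a block, 1768 genes were higher and 1444 lower, and with the numbers crossed, a setting added after the data were seen because same-numbered libraries deviated in opposite directions (correlation -0.24 across genes), 3118 and 3037. In the class I lists the block left 30 higher and 3 lower.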
